A study of Mus musculus with 27 samples.

Results

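Homeostatic periportal liver assembloids cultured for 2.5 weeks were compared with those cultured for 1 week, across all genes of a bulk RNA count table. Libraries were assigned to the 2 times by their labels alone, and the comparison took 6 of the 27 libraries that could be mapped to a sample, 3 for each time. Both groups were C57BL/6 and wild type by their labels and were built in the same way, from 10 hepatocyte organoids (HepOrgs), 1000 cholangiocytes and 250 portal mesenchymal cells in each well. They were kept in the same MM medium, which holds 30% WNT conditioned medium and a ROCK inhibitor, and were collected after 7 or 18 days. In general the study took wild-type HepOrgs, cholangiocyte organoids whose nuclei carry tdTomato, and SCA1+ mesenchymal cells in which the Pdgfra locus drives a nuclear GFP, but the labels do not give the donor lines of single libraries. Fibrotic-like assembloids, which received 2500 mesenchymal cells and were otherwise made alike, and MM HepOrgs, which received neither of the added cell types, serve below as points of comparison.

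The portal tract is where hepatocytes meet the bile ducts. Periportal hepatocytes make urea and glucose and export bile acids and phospholipid into canaliculi, cholangiocytes line the ducts that drain this bile, and portal fibroblasts lay down the collagen that surrounds them. In culture, primary hepatocytes are known to lose their liver-specific RNA with time, so whether the hepatocyte, ductal and mesenchymal programmes are kept from 1 to 2.5 weeks is the question this comparison addresses. In bulk RNA, fewer cells of a type and less RNA per cell cannot be told apart.

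One library stood apart before any comparison was made. The 6 libraries held between 35279254 and 57472382 counts, with the lowest total in 1 week replicate 2. That library held 8463 genes with at least 1 count, against 14014 to 15373 in the other 5. Of the 5005 genes whose mean in the other 5 libraries exceeded 20 CPM (counts scaled to the library total), 1003 had no count in it, whereas the same measure gave between 1 and 7 genes in each other library. Pearson's r of log2(CPM + 1) across 10904 genes was 0.41 to 0.5 between this library and the others, and 0.94 to 0.98 among those 5. Genes are not independent replicates, so these coefficients are descriptive. Among the leading RNAs of replicate 2 at 1 week were Krt8, a keratin of simple epithelia, at 17210 CPM against 687 to 2072 CPM in the other 5, Clu at 14490 against 2704 to 6356 CPM, and the protease inhibitor Serpine2 at 5488 against 15.5 to 97.5 CPM. TPM is used as deposited, which divides counts by a length near the whole gene span, introns included. Genes with long spans thus read low in it, and list sums lean on genes with short spans. Levels of different genes are therefore not directly comparable. The summed TPM of 25 secreted hepatocyte proteins was 195753 to 234601 in the other libraries and 11620 in 1 week replicate 2. Counts, list medians and fold changes are therefore given with and without this library, and levels are given for each library.

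With all libraries, 0 of 14253 genes (0%) passed an adjusted p of 0.05 in edgeR's quasi-likelihood test with Benjamini-Hochberg adjustment, and the lowest adjusted p was 0.759. An unadjusted p under 0.05 was found for 936 genes (6.57%). Without 1 week replicate 2, 0 of 14746 genes (0%) passed, 216 (1.46%) had an unadjusted p under 0.05, and the lowest adjusted p was 1. DESeq2 called 17 genes (0.116%) with all libraries, 3 higher and 14 lower at 2.5 weeks. All 14 lower genes had their highest TPM in 1 week replicate 2, at least 12.5 times that of any other homeostatic library. The 3 higher genes were listed at 0 there, but they were also at or near 0 in the other early libraries. Clec14a and Tpbgl were at 0 in all 3 libraries at 1 week, and Il17rd was at 0.00421, 0 and 0.00197 TPM. Clec14a was above 0 only in 2.5 weeks replicate 1, at 0.189 TPM. Without 1 week replicate 2 DESeq2 called 1 gene (0.00566%), 3830403N18Rik. It was at 0.986 TPM in 1 week replicate 1, 0.0238 TPM in replicate 3 and 0 in all 3 libraries at 2.5 weeks. It is named because it was the only call, after its values were seen.

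**Figure D1:**
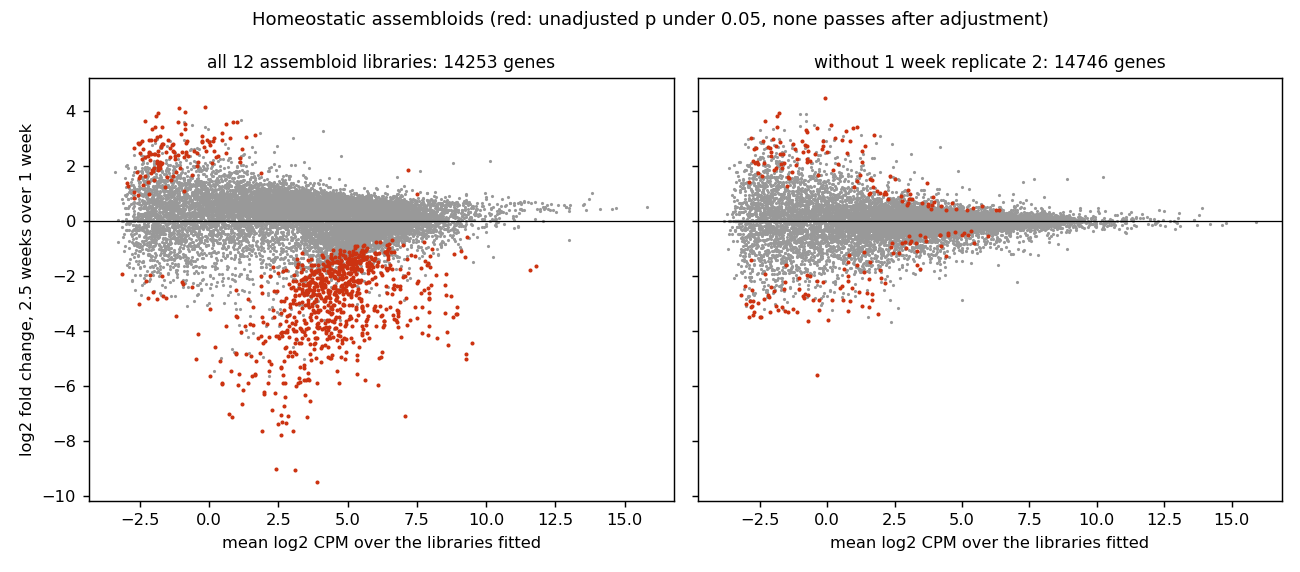
Fitted log2 fold change of each gene (y axis, 2.5 weeks over 1 week) against its mean log2 CPM (x axis), with all 12 assembloid libraries (left, 14253 genes) and without 1 week replicate 2 (right, 14746 genes). Red points have an unadjusted p under 0.05 (936 on the left and 216 on the right), and no gene passed after adjustment in either panel.

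The absence of calls is to be read with the width of the intervals. The median half-width of the 95% interval of a gene's log2 fold change was 2.38 with all libraries and 0.902 without 1 week replicate 2. Without it, the interval lay wholly within a log2 fold change of 1 either way for 6505 genes (44.1%), against 1564 genes (11%) with it. For the remaining genes the interval reached a difference of 2-fold or more. The median log2 fold change over all genes also moved, from 0.27 with the library to -0.01 without it, and list medians below are to be read against these.

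No hepatocyte gene group differed detectably between the times, and without 1 week replicate 2 their summed TPM overlapped. The 25 secreted plasma proteins summed to 234601 and 195753 TPM in 1 week replicates 1 and 3 and to 204731, 200612 and 214821 TPM at 2.5 weeks, so that all 3 late libraries fell between the 2 early ones. None of the 25 genes passed the test in either fit. Their median log2 fold change was 0.51 with all libraries, with 25 of 25 above 0 (63.2% of all genes), and -0.05 without replicate 2, with 10 of 25 above 0 (48.9% of all genes). Without replicate 2, the interval lay within 2-fold for 0 of these 25, against 44.1% of all genes. The same held for 1 of 19 periportal genes, 2 of 21 bile and organic ion transporters and 0 of 13 bile acid synthesis genes. It held for 5 of 18 hepatocyte transcription factors and 1 of 21 acute phase proteins. The lack of calls thus does not show that these genes kept their level. Alb, which encodes serum albumin (chromosome 5, 90608647 to 90624696, GRCm39), was at 3949, 381 and 3460 TPM at 1 week and at 3599, 3952 and 2379 TPM at 2.5 weeks. Its log2 fold change was 0.37 with all libraries (95% interval -1.92 to 2.67) and -0.17 without replicate 2 (-2.19 to 1.85), with adjusted p of 0.956 and 1. Hpx, the haem scavenger hemopexin (chromosome 7, 105240817 to 105249344), was at 31728, 1579 and 22530 TPM at 1 week and at 22303, 25821 and 26956 TPM at 2.5 weeks. Albumin and hemopexin thus overlapped between the times, with a low value in replicate 2 alone. Apoa1, the main protein of high-density lipoprotein, was at 30128, 1282 and 25723 TPM and then at 32639, 29211 and 22903 TPM.

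The regulators of hepatocyte identity had no called member either. The summed TPM of 18 hepatocyte transcription factors was 461, 88.4 and 561 at 1 week and 517, 511 and 469 at 2.5 weeks. Their median log2 fold change was 0.50 with and 0.00 without replicate 2, and 0 of 18 passed in either fit. Hnf4a, the nuclear receptor that maintains hepatocyte identity, was at 15.9, 26.6 and 22.8 TPM and then at 16.7, 18.2 and 16.7 TPM, and was not low in replicate 2. Its log2 fold change was 0.02 with and -0.08 without replicate 2, and the interval of the latter (-0.63 to 0.47) was among the 44.1% that lay within 2-fold. Cebpa, another driver of liver-specific transcription, was listed at 0 in replicate 2 and lay between 78.6 and 107 TPM in the other 5 libraries. The highest fitted value of the list without replicate 2 was that of Cebpb, an injury-responsive factor, at 16.4, 0 and 34.2 TPM at 1 week and 62.2, 30.8 and 25.2 TPM at 2.5 weeks, with log2 fold changes of 1.34 with and 0.76 without replicate 2 (-0.47 to 1.99 for the latter).

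**Figure D2:**
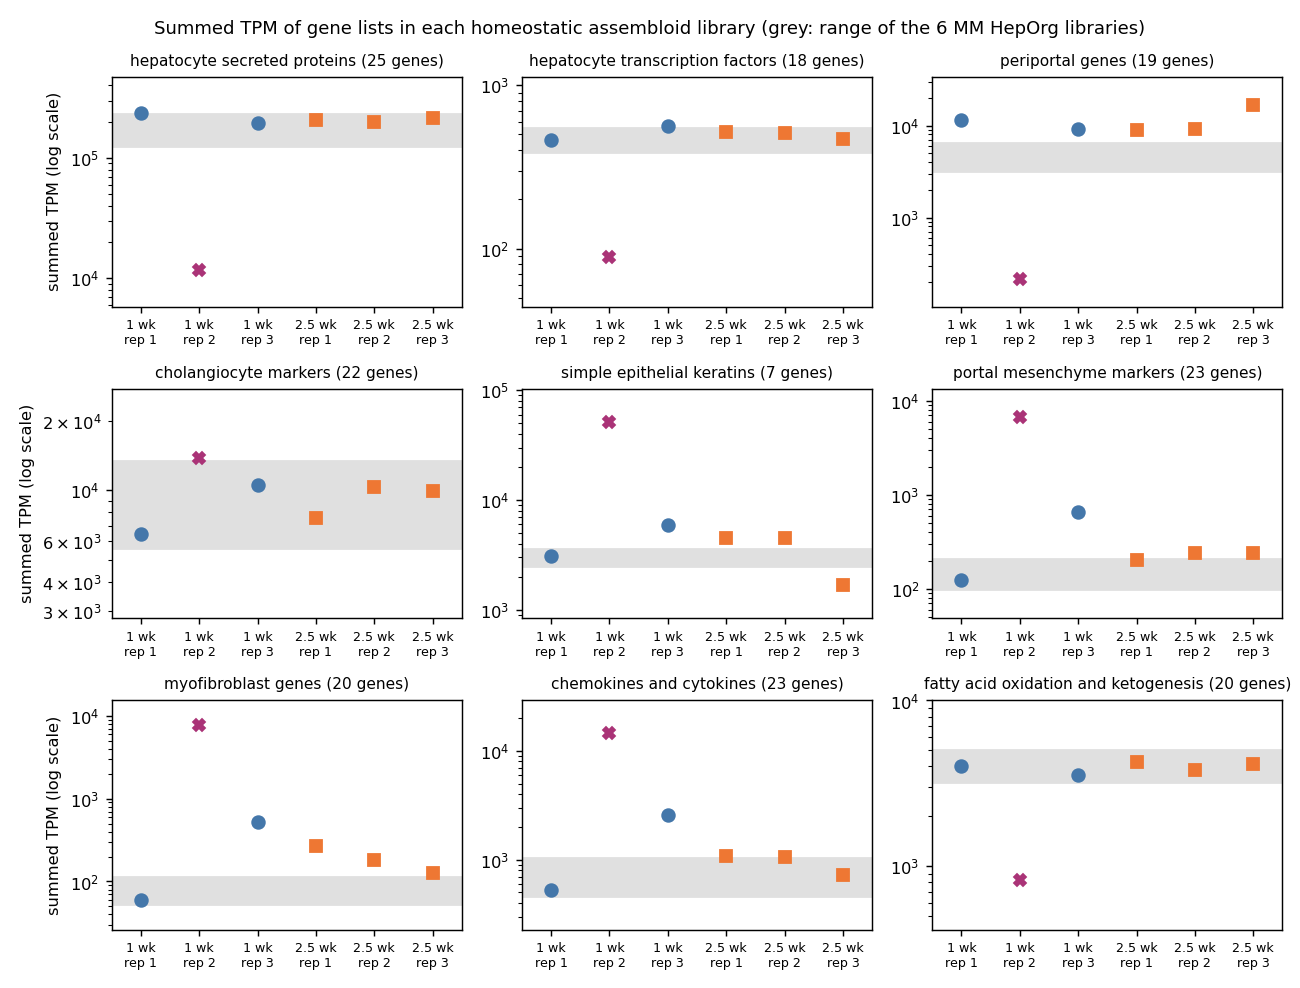
Summed TPM (log y axis) of 9 gene lists in each homeostatic library. Circles mark 1 week replicates 1 and 3, the cross marks 1 week replicate 2, squares mark 2.5 weeks, and the grey band is the range of the 6 MM HepOrg libraries; apart from replicate 2, secreted proteins lie between 195753 and 234601 TPM, and mesenchyme markers between 124 and 656 TPM.

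Periportal and pericentral programmes showed no detectable shift. Over 19 periportal genes the median log2 fold change was 0.45 with and -0.13 without replicate 2, over 17 pericentral genes tested it was 0.55 and -0.01, and no member of either list passed. Fbp1, an enzyme of gluconeogenesis (chromosome 13, 63012567 to 63036263), was at 452, 2.97 and 349 TPM at 1 week and at 319, 363 and 485 TPM at 2.5 weeks. Arg1, the last enzyme of the urea cycle (chromosome 10, 24791118 to 24803817), was at 294, 0 and 108 TPM and then at 225, 173 and 197 TPM. For Arg1 all 3 late values lay between those of 1 week replicates 1 and 3, and its log2 fold change was 0.45 with replicate 2 (-3.27 to 4.17) and -0.14 without it (-1.79 to 1.52, adjusted p = 1). The highest sum over the periportal list was that of 2.5 weeks replicate 3, 16816 TPM against 8919 to 11396 TPM in the other libraries without replicate 2. Glul, the pericentral glutamine synthetase (chromosome 1, 153775690 to 153785469, overlapping Teddm2), was at 92.2, 42.4 and 81.4 TPM and then at 105, 76.5 and 135 TPM, with log2 fold changes of 0.71 with and 0.31 without replicate 2. The WNT target Axin2 stayed under 0.2 TPM in every homeostatic library.

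The transporters by which hepatocytes take up and secrete bile were compared next. The median log2 fold change was 0.57 over the 20 bile and organic ion transporters tested with replicate 2 and 0.02 over the 21 tested without it, with 0 called in both. Abcb11, the bile salt export pump (chromosome 2, 69068544 to 69173315), was at 5.03, 0 and 3.19 TPM at 1 week and at 4.20, 3.65 and 4.71 TPM at 2.5 weeks. Abcb4, which flips phospholipid into bile (chromosome 5, 8943604 to 9011999, overlapping Crot), was at 25.9, 0.194 and 19.1 TPM and then at 28.2, 25.6 and 19.0 TPM. Both pumps were at or near 0 in replicate 2 and overlapped between the times otherwise, with log2 fold changes of -0.01 (-1.87 to 1.86) for Abcb11 and 0.08 (-1.70 to 1.85) for Abcb4 without it. With it the values were 0.58 (-2.96 to 4.11) for Abcb11 and 0.66 (-2.15 to 3.46) for Abcb4. Abcc2, the canalicular exporter of conjugates (chromosome 19, 43770631 to 43829179), was at 14.3, 6.67 and 37.6 TPM and then at 27.8, 18.3 and 16.3 TPM. Abcc3, its basolateral counterpart (chromosome 11, 94233874 to 94283823), was at 30.6, 18.7 and 51.0 TPM and then at 51.7, 44.3 and 39.0 TPM. The interval of Abcc3 lay within 2-fold without replicate 2, at -0.26 to 0.75 around a log2 fold change of 0.24, and was -0.29 to 1.58 around 0.65 with it. Slc10a1, the bile acid importer, whose span overlaps Srsf5, was at 91.8, 0 and 14.9 TPM and then at 49.1, 42.7 and 89.0 TPM, all late values again lying between 1 week replicates 1 and 3.

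**Figure D3:**
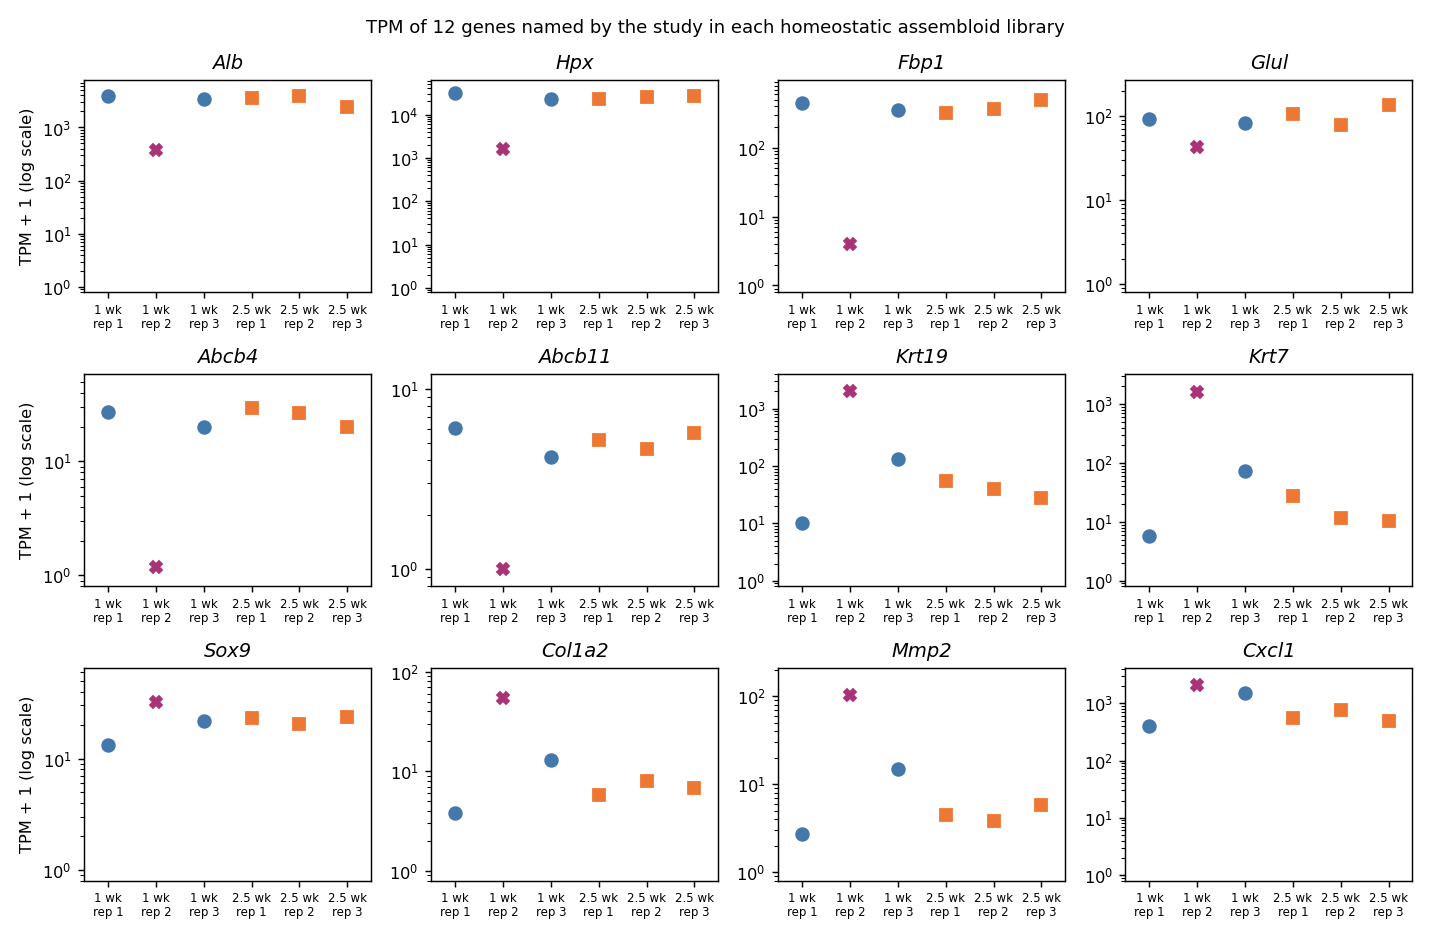
TPM + 1 (log y axis) of 12 genes named by the study in each homeostatic library, with the symbols as for the list sums. In hepatocyte genes such as Fbp1 and Abcb4 the cross of 1 week replicate 2 lies under the other 5 libraries, and in Krt19, Krt7, Col1a2 and Mmp2 it lies above them.

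Metabolic gene groups were set side by side next. The 19 drug-metabolising cytochrome P450 genes had a median log2 fold change of 0.37 with and 0.00 without replicate 2, and the 13 bile acid synthesis genes tested 0.60 and 0.03. Single members spread widely within a time. Cyp8b1, the 12-hydroxylase of bile acid synthesis, was at 313, 0 and 17.5 TPM at 1 week and at 91.7, 57.8 and 288 TPM at 2.5 weeks. Cyp1a2, an aryl hydrocarbon receptor target, was at 95.8, 0 and 141 TPM and then at 395, 36.7 and 115 TPM. For both the 2 times overlapped, and neither passed the test. Among 20 genes of fatty acid oxidation and ketogenesis, 20 had a fitted log2 fold change above 0 with all libraries (63.2% of all genes). Without replicate 2, 16 did (48.9% of all genes), and the medians were 0.64 and 0.13. On TMM-normalised CPM without replicate 2, 4 of the 20 lay above both early libraries, 0 below and 9 inside their range. Over all genes these shares were 6.87%, 6.48% and 23.3%. Scaled to the library total alone, the 20 genes summed to 10350 and 8851 CPM in 1 week replicates 1 and 3. At 2.5 weeks they summed to 10847, 10563 and 10563 CPM. These sums did not overlap, whereas the summed TPM did. They leave out the TMM factors of the fit, 0.647 and 0.955 for 1 week replicates 1 and 3 and 0.807, 0.81 and 0.699 at 2.5 weeks. Divided by these factors, the late sums lay between those of 1 week replicates 1 and 3. The non-overlap therefore did not hold on the scale of the fit. Cholesterol and fatty acid synthesis genes had medians of 0.50 and 0.07, and 11 of the 21 had an interval within 2-fold without replicate 2. Acute phase proteins, the plasma proteins of inflammation, had medians of 0.60 and 0.04. Hp, haptoglobin, was at 64672, 3748 and 56103 TPM and then at 52049, 56092 and 60902 TPM. None of these members was called in either fit.

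The 13 protein-coding genes of the mitochondrial genome had one direction without replicate 2. Without replicate 2 all 13 had a fitted log2 fold change above 0 (48.9% of all genes), between 0.08 and 0.47 with a median of 0.31. With it 12 of the 13 did (63.2% of all genes), with a median of 0.35. They summed to 109372, 189934 and 102928 TPM at 1 week and to 133640, 140880 and 113504 TPM at 2.5 weeks. In TPM the late libraries were thus above 1 week replicates 1 and 3 and below replicate 2. On TMM-normalised CPM without replicate 2, 2 of the 13 genes lay above both early libraries, 0 below and 3 inside their range. The other 8 overlapped. Over all genes the shares above, below and inside were 6.87%, 6.48% and 23.3%. mt-Co1, a subunit of cytochrome oxidase, was at 17268, 32251 and 17848 TPM and then at 22486, 27359 and 19269 TPM, with log2 fold changes of 0.40 with (-0.39 to 1.20) and 0.42 without replicate 2 (-0.52 to 1.36). These genes are transcribed together and are not independent of each other, and 0 of 13 passed the test in either fit.

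Ductal genes spread widely among the 1 week libraries. Over 22 cholangiocyte markers the median log2 fold change was -1.49 with and -0.45 without replicate 2, and none passed in either fit. Without it 17 of 22 lay below 0, against 7535 of 14746 over all genes. The 7 simple epithelial keratins summed to 3054, 51756 and 5899 TPM and then to 4529, 4533 and 1671 TPM, with medians of -2.92 and -0.50. Krt19, the duct keratin (chromosome 11, 100031636 to 100039491), was at 9.19, 2006 and 131 TPM at 1 week and at 54.0, 38.1 and 26.5 TPM at 2.5 weeks. Krt7 (chromosome 15, 101308924 to 101328194) was at 4.75, 1628 and 72.5 TPM and then at 26.0, 10.5 and 9.13 TPM. For both keratins the 3 late values lay between 1 week replicates 1 and 3, which alone were over 10-fold apart. The log2 fold change of Krt19 was -3.37 with all libraries (-6.73 to -0.01, adjusted p = 0.759) and -0.50 without replicate 2 (-3.19 to 2.18, adjusted p = 1). Krt7 gave -4.41 (-8.16 to -0.66) and -1.03 (-3.78 to 1.72). In MM HepOrgs, which received no cholangiocytes, Krt19 ranged from 0.782 to 14.2 TPM and Krt7 from 0.0290 to 4.62 TPM, so that the late assembloids lay above that background for both and 1 week replicate 1 lay within it for Krt19.

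Other ductal genes had late values between those of 1 week replicates 1 and 3, with exceptions. Ano1, a chloride channel of the duct (chromosome 7, 144142278 to 144305711), was at 0.101, 38.9 and 2.48 TPM and then at 0.938, 0.525 and 0.482 TPM. Ezr, which links the apical membrane to actin (chromosome 17, 7005440 to 7050611, overlapping Sytl3), was at 2.23, 252 and 19.2 TPM and then at 6.90, 5.49 and 3.45 TPM. The adhesion molecule Epcam was at 2.49, 412 and 28.2 TPM and then at 11.8, 7.68 and 2.91 TPM. Ano1, Ezr and Epcam were thus lowest in 1 week replicate 1 and highest in replicate 2. Sox9, a factor of ductal and periportal hybrid cells (chromosome 11, 112673009 to 112678586), differed from them, at 12.4, 31.4 and 20.7 TPM and then at 22.1, 19.4 and 22.8 TPM, with log2 fold changes of 0.43 with and 0.49 without replicate 2 (-0.39 to 1.37). Sox9 and Spp1, the secreted osteopontin, were also present in MM HepOrgs, Sox9 at 26.6 to 41.5 TPM and Spp1 at 4730 to 13086 TPM, and Spp1 made up most of the summed cholangiocyte list in every homeostatic library but 1 week replicate 2, where it was 6076 of 13754 TPM. Elf3, an epithelial transcription factor that the list also holds, was listed at 0 in replicate 2, whose keratins were high.

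Non-overlap between the times was counted over all genes. With all 6 libraries, on TMM-normalised CPM, the 3 late libraries lay above the 3 early ones for 702 of 14253 genes (4.93%) and below them for 273 (1.92%). Without replicate 2, all 3 libraries at 2.5 weeks lay within the range of 1 week replicates 1 and 3 for 3432 of 14746 genes (23.3%), above both for 1013 (6.87%) and below both for 955 (6.48%). Of the 22 cholangiocyte markers 10 lay inside, 1 above and 1 below. Of 15 YAP and TEAD target genes 9 lay inside and 0 above or below, and of 27 matrix genes 14 lay inside and 0 above or below. Ccn2, a YAP target that encodes a connective tissue growth factor, was at 41.4, 6852 and 460 TPM at 1 week and at 238, 154 and 91.6 TPM at 2.5 weeks. Ankrd1, a second such target, was at 5.34, 1334 and 87.5 TPM and then at 28.1, 13.0 and 7.92 TPM. Both YAP targets followed the order of the duct keratins across the 1 week libraries, and the part of ductal RNA in this was not tested.

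The sum of portal mesenchyme markers was high in 1 week replicate 2 and, to a lesser degree, in replicate 3. Over 23 portal mesenchyme markers the sum was 124, 6717 and 656 TPM at 1 week and 203, 239 and 242 TPM at 2.5 weeks, against 97.7 to 210 TPM in MM HepOrgs. In replicate 2 most of it came from Ly6a, which encodes SCA1, at 4202 TPM and Mgp at 1905 TPM. There 7 of the 23 markers were listed at 0. Ly6a was at 17.5 to 84.0 TPM in MM HepOrgs. The median log2 fold change of the 21 markers tested was -0.82 with and -0.21 without replicate 2, with 0 called. Pdgfra, whose product defines these cells in the study, was under 1 TPM in each library, at 0.0877, 0.235 and 0.228 TPM and then at 0.269, 0.204 and 0.523 TPM. Mgp, the matrix Gla protein, was above its level in MM HepOrgs in every homeostatic library, at 23.0, 1905 and 218 TPM and then at 37.6, 32.4 and 67.3 TPM, against 0 to 1.29 TPM in MM HepOrgs. Gli1 and Pi16 were listed at 0 in all 6 libraries. The 8 stellate and smooth muscle markers tested had medians of -0.85 with and -0.70 without replicate 2. Markers of other gut and lung epithelium, tested for 4 and 8 genes, had medians of -0.10 and -0.43. Endothelial markers summed to at most 0.284 TPM and immune markers to at most 10.3 TPM in any homeostatic library, with Clec4f, Cd5l, Itgam, C1qa and Marco listed at 0 in all 6.

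Collagens and other fibrillar and basement membrane genes did not differ detectably. Col1a1 (chromosome 11, 94827050 to 94843868), a chain of fibrillar type I collagen, was at 10.0, 156 and 30.3 TPM at 1 week and at 19.5, 26.1 and 22.6 TPM at 2.5 weeks. Col1a2, the partner chain (chromosome 6, 4504814 to 4541555), was at 2.79, 53.3 and 12 TPM and then at 4.80, 6.99 and 5.76 TPM. Col3a1, of type III collagen (chromosome 1, 45350698 to 45395840), was at 3.53, 99.3 and 13.1 TPM and then at 7.08, 11 and 6.46 TPM. In TPM the late libraries lay between 1 week replicates 1 and 3 for each collagen, and MM HepOrgs reached 21.9, 5.52 and 14.4 TPM. On TMM-normalised CPM this held for Col1a2 but not for Col1a1 and Col3a1, whose times overlapped. The log2 fold change of Col1a1 was -0.82 with (-2.95 to 1.32) and 0.38 without replicate 2 (-1.74 to 2.50), so that its sign rested on that library, as did that of Col3a1 (-1.49 and 0.20). Col1a2 gave -1.25 and -0.09. Over the 27 fibrillar and basement membrane genes the median was -0.37 with and -0.32 without replicate 2.

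Matrix turnover genes were low apart from replicate 2. Mmp2, a gelatinase of fibroblasts (chromosome 8, 93553902 to 93580049), was at 1.70, 103 and 13.8 TPM and then at 3.50, 2.79 and 4.80 TPM, and Mmp3, a stromelysin (chromosome 9, 7445822 to 7455975), at 1.94, 733 and 52.3 TPM and then at 7.88, 23.4 and 12.4 TPM. Timp2, a protease inhibitor (chromosome 11, 118191887 to 118246566, overlapping Cep295nl), was at 0.410, 81.4 and 6.06 TPM and then at 1.68, 1.17 and 1.06 TPM, with a log2 fold change of -3.68 (-6.28 to -1.08) with and -0.98 (-2.49 to 0.53) without replicate 2. These 3 genes again placed all late libraries between 1 week replicates 1 and 3. Timp1 lies within the span of Syn1 and is listed at 0 in all 27 libraries, so it gives no value here. Cdh11, a fibroblast cadherin (chromosome 8, 103358726 to 103512687), reached 3.86 TPM in replicate 2 and stayed under 0.3 TPM in the others, at 41 to 340 counts. The integrin chain Itgb1 (chromosome 8, 129411876 to 129460618) was measured more evenly, at 20.4, 92.6 and 39.5 TPM and then at 34.8, 25.7 and 17.1 TPM, with a log2 fold change of -0.46 with replicate 2 (-1.23 to 0.30), and its interval without it (-0.77 to 0.58 around -0.10) lay within 2-fold. Over 18 matrix proteases and inhibitors the median was -0.91 with and -0.44 without replicate 2, and over 19 myofibroblast genes -1.75 and -0.25, with 0 called.

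**Figure D4:**
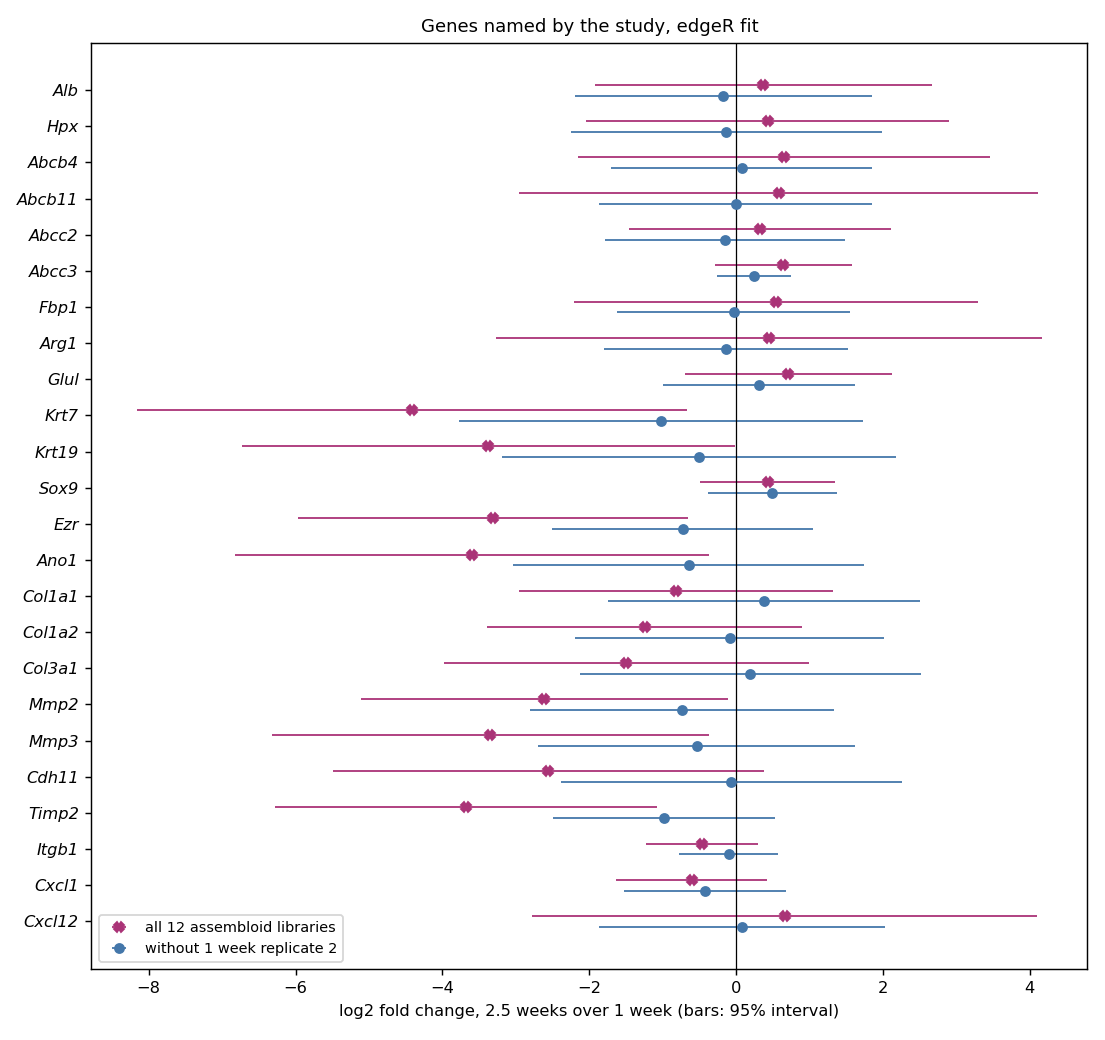
Log2 fold change at 2.5 weeks over 1 week (x axis) of 24 genes named by the study, with 95% intervals as bars, from all 12 assembloid libraries (crosses) and without 1 week replicate 2 (circles). Intervals of the crosses exclude 0 for Krt7, Krt19, Ezr, Ano1, Mmp2, Mmp3 and Timp2, all at an adjusted p of 0.759, and every interval of the circles spans 0.

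Secreted signals were compared next. Cxcl1, a neutrophil chemokine (chromosome 5, 91039094 to 91040974), was at 395, 2051 and 1483 TPM at 1 week and at 552, 759 and 491 TPM at 2.5 weeks, with a log2 fold change of -0.61 with (-1.64 to 0.42) and -0.42 without replicate 2 (-1.53 to 0.68). Cxcl12, the ligand of CXCR4 (chromosome 6, 117144945 to 117158328), was at 19.1, 0 and 31.1 TPM and then at 19.2, 28.1 and 26.0 TPM. Ccl11, the chemokine eotaxin, was under 2 TPM in every homeostatic library. The 21 chemokines and cytokines tested had medians of -0.61 and -0.07, and the 24 interferon response and antigen presentation genes 0.54 and 0.04. The Notch pathway list, tested for 14 genes with and 15 without replicate 2, had medians of -0.08 and -0.22. None of these lists had a called member.

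Growth and stress genes were described last. The 22 mitotic (G2/M) genes tested summed to 15.4, 75.1 and 27.3 TPM at 1 week and to 32.5, 16.3 and 18.1 TPM at 2.5 weeks. Their median log2 fold change was 0.76 with and 0.20 without replicate 2. Mki67, a proliferation marker, was under 1 TPM in each homeostatic library. In replicate 2 at 1 week, 19 of the 23 genes on the list were listed at 0. Replication genes had medians of 0.29 and 0.06, p53 targets and senescence genes -0.49 and -0.01, immediate early genes -0.17 and 0.00, NRF2 targets 0.48 and -0.03, hypoxia and glycolysis genes 0.10 and -0.15, and ATF4 and unfolded protein response genes 0.24 and -0.14. Of the 20 p53 targets, 12 had an interval within 2-fold without replicate 2. Cdkn1a, the cell cycle inhibitor p21, was among them, at 113, 389 and 207 TPM and then at 150, 155 and 95.6 TPM.

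**Figure D5:**
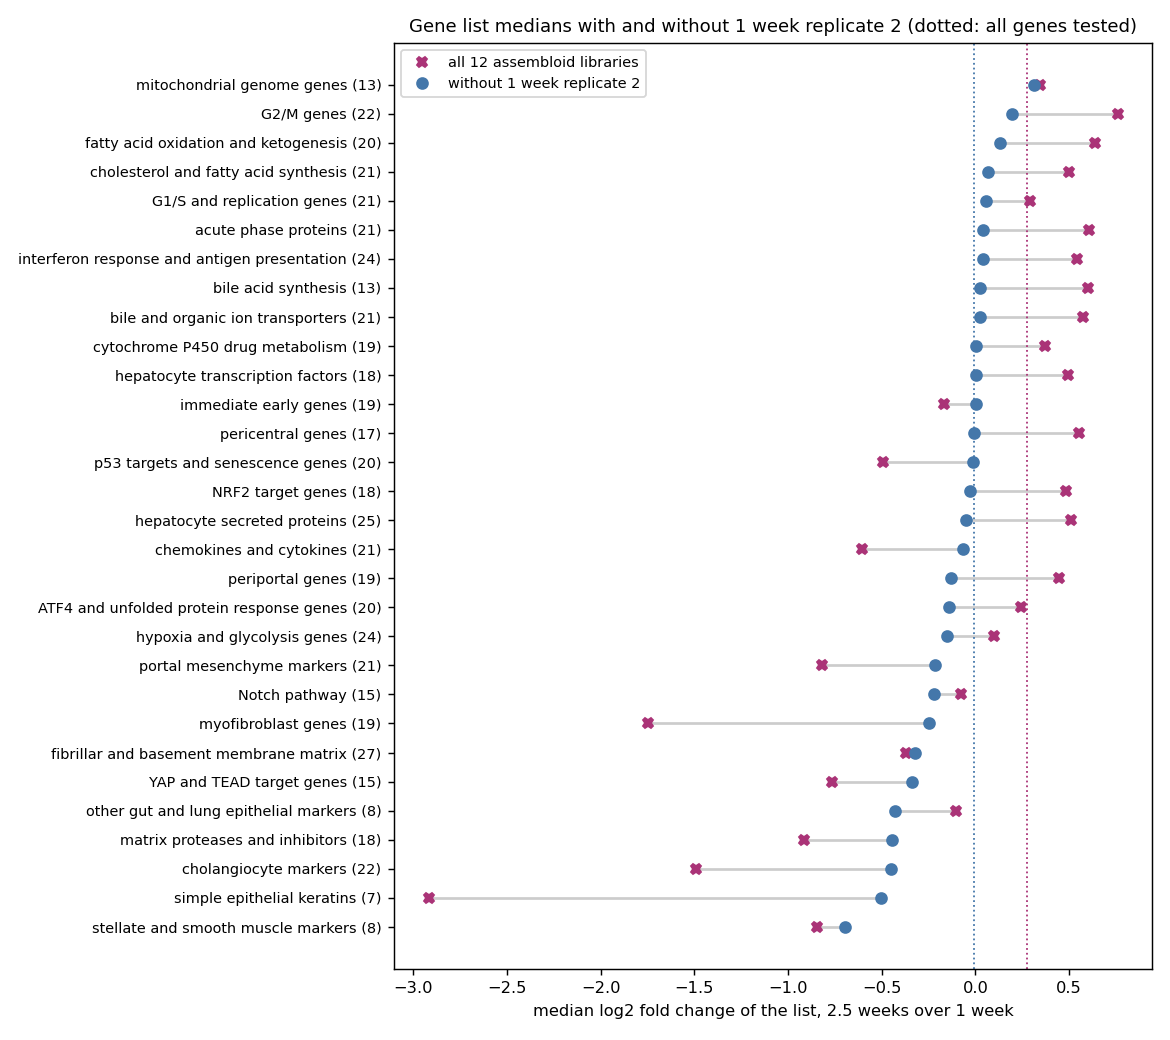
Median log2 fold change (x axis, 2.5 weeks over 1 week) of each gene list with at least 7 tested genes (number in brackets), with all 12 assembloid libraries (crosses) and without 1 week replicate 2 (circles). Dotted lines mark the medians of all genes, 0.27 and -0.01; keratins move from -2.92 to -0.50 and secreted hepatocyte proteins from 0.51 to -0.05.

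The change with time was then set against that of fibrotic-like assembloids. In these, edgeR called 0 genes with all libraries and without homeostatic 1 week replicate 2, with 122 (0.856%) and 1553 (10.5%) at an unadjusted p under 0.05. DESeq2 called 0 and 112 (0.844% of 13272). The 2 changes share no library, but 1 fit over the 4 assembloid groups estimates their spread together. Leaving out homeostatic 1 week replicate 2 thus also changes the fibrotic-like counts, with no fibrotic-like library changed. The common dispersion, edgeR's measure of that spread, was 0.777 with it and 0.268 without it. The difference between the 2 changes was past the threshold for 0 of 14253 genes (0%) in edgeR, with 278 (1.95%) at an unadjusted p under 0.05, and for 0 in DESeq2. Without homeostatic 1 week replicate 2 it was 0 of 14746 in edgeR, with 505 (3.42%) at an unadjusted p under 0.05, and 5 of 17672 in DESeq2 (0.0283%), all with the higher log2 fold change in homeostatic assembloids. Those 5, named after their values were seen, were Hmga1, Kpnb1, Suv39h1, Syt14 and Zfp202. Hmga1, a chromatin protein of growing cells, was at 11.1, 222 and 24.7 TPM at 1 week and at 24.0, 22.4 and 17.4 TPM at 2.5 weeks in homeostatic assembloids, with a DESeq2 difference of 1.99 on the log2 scale (adjusted p = 0.000991). In the fit without that library the mitotic list had a median log2 fold change of 0.20 in homeostatic and -1.43 in fibrotic-like assembloids, and the secreted protein list -0.05 and 1.20. With all libraries the homeostatic medians were 0.76 and 0.51. The difference between the 2 changes of Arg1 was -2.60 with all libraries (-7.94 to 2.73) and -3.19 without homeostatic 1 week replicate 2 (-5.42 to -0.95). For Abcc3 it was -0.58 (-1.90 to 0.74) and -0.98 (-1.65 to -0.32). Both intervals spanned 0 with all libraries, and neither gene passed the adjustment over all genes in either fit.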

How the data were processed

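Per the labels and the study's methods, the authors made SMART-seq2 libraries from polyA RNA, used STAR for alignment (build GRCm39) and counted reads per gene in featureCounts. The deposited table stacks raw counts, TPM and a gene length near the whole gene span, introns included, which the deposited TPM divides by; reads of overlapping genes cannot be told apart. Of 37 libraries in the table, 10 matched no sample label and were not used. The 2 reporter rows were left out of gene counts.

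Counts were tested with edgeR 4.0.16 (R 4.3.3; TMM; filterByExpr at min.count 10, min.total.count 15; glmQLFit with a prior count of 2; 1 mean for each of 4 assembloid groups, 12 libraries), with Benjamini-Hochberg adjustment over all genes and a threshold of 0.05, and 95% intervals from the same fit. DESeq2 1.42.0 and limma 3.58.1 served as alternatives, the latter on log2(TPM + 1), log2(TPM + 0.1) and voom values. The labels do not say whether replicates were separate cultures, so p-values measure only the spread between these libraries, which may be technical. Total counts ranged from 32893944 to 65348596 in the 12 libraries; intervals cover the spread between libraries.

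The comparison, the 32 gene lists (596 of 598 entries had a row) and the tests were chosen with earlier results of these data known. Named genes were to be those past the threshold, of which there were none, and 28 genes the study names, some of which are not reported here. Other members were named after their values were seen, most of them for their level in the list. Levels are deposited TPM; coordinates are GENCODE vM39 gene spans on GRCm39, the build of the files.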

Additional observations from a re-analysis of the deposited data

Results flagged for a closer look

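Reporter transcripts were counted in the table but used in no comparison, and they were above the 0 counts of all 6 MM HepOrg libraries. Counts of eGFP in homeostatic assembloids were 23, 472 and 5357 at 1 week and 24, 33 and 855 at 2.5 weeks. Counts of tdTomato were 9, 238 and 6277 at 1 week and 86, 52 and 2224 at 2.5 weeks. Replicate 3 had the highest count of both reporters at both times, at 96.4 and 20.6 CPM of eGFP and 113 and 53.5 CPM of tdTomato. Replicate 3 also had the highest eGFP in both fibrotic-like groups, at 1070 and 182 CPM. The labels do not say which reporter line went into which library, so a low count cannot be told apart from cells without the reporter.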

How the results depend on the processing

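For the change with time and for its difference from fibrotic-like assembloids, the count of called genes stayed at 0 under RLE size factors, both filters on low counts, limma at both pseudocounts, the robust spread, MM HepOrgs in the fit, voom with quality weights, and a fold limit. It also stayed at 0 for the change with time in the homeostatic libraries alone. DESeq2 gave 17 for the change with time. Leaving out 1 library at a time gave 0 to 2 genes for the change and 0 to 5 for the difference, where the values above 0 came from DESeq2 without 1 week replicate 2 (1, 2 in the homeostatic libraries alone, and 5), settings chosen after seeing the data. The replicate block gave 0 genes for both. The labels do not say whether the numbers pair libraries, and the data did not settle it. For this the mean of each group was first taken off every gene, so these are not correlations of whole libraries. Same-numbered libraries of different groups then correlated at -0.43 to 0.49 over 18 pairs, 9 of them above 0.1. Among libraries of the other groups, 6 of 12 libraries correlated best with one of their own number.

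For 24 named genes, log2 fold changes were set beside 549 alternatives with all libraries, of which 15 changed sign, and 192 without 1 week replicate 2, of which 19 did; 0 passed the threshold. With all libraries, voom quality weights turned Alb to -0.0155, Hpx to -0.0057, Abcc2 to -0.124, Fbp1 to -0.00102, Cxcl12 to -0.0235, Col1a1 to 0.236 and Col3a1 to 0.101. Leaving out 1 library at a time gave -0.173 to 1.24 for Alb, -0.134 to 1.52 for Hpx, -0.0057 to 1.83 for Abcb11, -0.15 to 0.99 for Abcc2, -0.0343 to 1.60 for Fbp1, -0.136 to 2.30 for Arg1, -1.21 to 0.378 for Col1a1 and -1.94 to 0.196 for Col3a1, with the sign turning where 1 week replicate 2 was left out. Without that library, the replicate block turned Hpx to 0.132, Abcb11 to 0.323, Fbp1 to 0.136, Arg1 to 0.46, Krt7 to 0.0124, Krt19 to 0.025, Ano1 to 0.24, Col3a1 to -0.105 and Cxcl12 to -0.277. Voom quality weights turned Abcb11 to 0.0656, Arg1 to 0.116, Krt19 to 0.231, Ano1 to 0.121 and Cxcl12 to -0.0488, and limma turned Abcb11 to 0.0393, Arg1 to 0.141, Krt19 to 0.087, Mmp3 to 0.188 and Cxcl12 to -0.0172. The cause was not tested. Of 730 list medians with all libraries 39 moved by more than the spread between replicates, and 9 of 255 without replicate 2. In both cases that spread was taken over all homeostatic libraries, 1 week replicate 2 included. As that library stood apart, these counts do not show that the list medians were stable. Between TPM and CPM, the summed level kept its direction for 31 of 32 lists with all libraries, the exception being mitochondrial genome genes, and for 28 of 32 without replicate 2, the exceptions being bile acid synthesis, hepatocyte transcription factors, NRF2 targets and pericentral genes.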
